A study of Sus scrofa with 32 samples.

Results

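The cells described here are the T cells of the pig ileum that carried transcripts of cell division, 502 of the 35386 ileal barcodes that passed the limits on depth and quality. They were chosen by measured values. A barcode needed a minimum number of UMIs (unique molecular identifiers, each standing for 1 captured transcript) and of genes, and few UMIs from the 13 mitochondrial protein-coding genes, with the limits given under the processing. Among those barcodes, a cycling T cell had at least 2 UMIs of CD3E, a chain of the T cell receptor complex, and at least 1 UMI each of TOP2A, which untangles chromosomes, and PCLAF, a partner of the replication clamp. It also had no UMI of the B cell genes CD79B and MS4A1 or of the epithelial gene EPCAM, and less than 0.5% of its UMIs from JCHAIN, which marks antibody-secreting cells. The same conditions without TOP2A and PCLAF gave 10878 ileal T cells, of which the 9408 with neither gene were called non-cycling.

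The samples came from 2 mixed-breed pigs of 7 weeks, pig 1 labelled female and pig 2 labelled male, with no treatment or genotype given. From each pig, scRNA-seq was run on ileum with Peyer's patches (PP), ileum without Peyer's patches (non-PP), a whole cross-section of ileum and peripheral blood mononuclear cells (PBMC), so each dissection had 1 library per pig and 2 in all. Each of the 8 libraries was sequenced in 4 runs, which share the same cells and were counted as 1 sample. Ileal suspensions were enriched for lymphocytes, so the shares are shares of recovered cells, not of the tissue. Library totals ranged from 21134542 UMIs (non-PP pig 2) to 40111934 UMIs (PP pig 1).

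T cells leave the cell cycle after they mature in the thymus and re-enter it after antigen recognition, when a naive or memory cell expands into many daughters. A dividing cell first copies its DNA, with helicases, polymerases and nucleotide enzymes, and then separates the copies with the mitotic spindle and its kinases. The small intestine holds T cells in the epithelium, the lamina propria and the Peyer's patches, where CD4 helper cells meet B cells in follicles. Pigs carry many γδ T cells, which use the receptor chain encoded by TRDC, beside the CD4 and CD8 T cells that use the αβ receptor.

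One library went against its label. In the kept barcodes, summed UMIs of 5 Y-linked genes stood at 0.161, 0.224 and 0 CPM (UMIs scaled to a common library total) in PP, non-PP and PBMC of pig 1, while they stood at 213, 185, 226 and 119 CPM in PP, non-PP, whole ileum and PBMC of pig 2. The library labelled whole ileum pig 1 had 207 CPM. KIF22, a chromosome-binding kinesin, divided the libraries in the same way, since its level in cycling T cells was 177 CPM in PP, 153 in non-PP and 127 in PBMC of pig 1, against 31.5, 26.7, 22.9 and 22.3 CPM in PP, non-PP, whole ileum and PBMC of pig 2 and 15.1 CPM in the library labelled whole ileum pig 1. The library was kept under its label, and the main counts of genes and cells that include it are given also without it. Between 21 and 80 kept barcodes were shared by each of the 28 pairs of libraries, and no cycling T cell's barcode was a cycling T cell in another ileal library, while 25 of their barcodes were kept in some other library.

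The cells read as T cells. CD3G and CD3D, chains of the same receptor complex as CD3E, were found in 97.2% and 86.9% of them, the adhesion receptor CD2 in 93.6% and the kinase LCK in 93.2%. All 15 T cell identity genes on the list were detected, with a summed level of 4362 to 5508 CPM per library and CD3G the most abundant. In barcodes too small to be cells, which hold free RNA, these genes summed to 1876 to 4314 CPM, and in non-PP pig 2 to 4314 CPM against 5508 CPM in the cycling T cells. The B cell genes CD79A and PAX5 appeared in 1.8% and 0.2% of the cells, against 43.4% and 57.2% of cycling B cells. The 20 B cell genes summed to 682 to 1091 CPM, most of it CD74, an antigen-presentation gene that activated T cells also make, and BANK1 and FCER2 were at 0. Of 15 epithelial genes, FABP6 was the most abundant, and their sum ran from 65.5 CPM in PP pig 2 to 1320 CPM in non-PP pig 1, with 2514 and 29594 CPM in free RNA of the same libraries. The 15 myeloid genes summed to 89.2 to 529 CPM, led by FCER1G, with CD163, FLT3 and XCR1 at 0. The 10 stromal genes summed to 12.1 to 185 CPM, led by IGFBP7, and COL1A2 and DCN were at 0. The 15 genes of innate lymphoid and natural killer cells summed to 288 to 1241 CPM, led by KLRK1, and KLRF1 and IL1R1 were at 0. For all 3 of the epithelial, myeloid and stromal lists, and for the innate list, non-PP pig 1 was the highest library, and the part of such RNA in the comparisons was not tested.

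The values of members near the thresholds are given as a description. CD3E stood at exactly 2 UMIs in 34 cells, which had 186 CPM of CDK1, the kinase that drives entry into mitosis, and at 3 or more in 468, which had 215 CPM, while 24 barcodes that met all else had 1 UMI and 150 had none. The 14 cells with a single UMI of both TOP2A and PCLAF had 61.5 CPM of CDK1, which is 3 UMIs, against 215 CPM in the other 488. Just outside, the 143 T cells with TOP2A alone at 1 UMI had 34.0 CPM, the 494 with PCLAF alone at 1 UMI had 16.7 CPM and non-cycling T cells had 8.45 CPM. Of cycling B cells, taken with no UMI of CD3D and CD3G, 0 to 1.49% per ileal library had 2 or more UMIs of CD3E. TOP2A and PCLAF were found together in 4 of 71, 8 of 85, 0 of 4, 1 of 17, 3 of 44 and 10 of 119 antibody-secreting barcodes of PP pig 1, PP pig 2, non-PP pig 1, non-PP pig 2, whole ileum pig 1 and whole ileum pig 2. Those barcodes had median depths of 6976 to 11775 UMIs, against 6798 UMIs in cycling T cells. In barcodes too small to be cells, TOP2A made up 49.7 to 165 CPM and PCLAF 162 to 468 CPM.

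Cycling T cells were a small part of the T cells in every ileal library. The share was 6.72% in PP pig 1 (96 of 1428 T cells, 95% exact interval 5.48 to 8.15%) and 3.82% in PP pig 2 (55 of 1438, 2.89 to 4.95%). It was 5.88% in non-PP pig 1 (164 of 2791, 5.03 to 6.81%) and 2.10% in non-PP pig 2 (45 of 2142, 1.54 to 2.80%). The libraries labelled whole ileum had 4.32% in pig 1 (82 of 1900, 3.45 to 5.33%) and 5.09% in pig 2 (60 of 1179, 3.91 to 6.50%). These intervals cover counting error only. In both PP and non-PP the share was higher in pig 1 than in pig 2, and the PP and non-PP libraries overlapped.

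The mean share was 5.27% ± 2.05 (SD, n = 2) in PP and 3.99% ± 2.67 (SD, n = 2) in non-PP, a difference of 1.29 percentage points with p = 0.667 in a two-sided exact permutation test. With 2 libraries against 2 the smallest p is 0.333. Within the pigs the difference was 0.847 points in pig 1 and 1.72 points in pig 2. Where 1 UMI of either TOP2A or PCLAF sufficed, the shares were 17.5% ± 3.94 in PP and 10.2% ± 4.61 in non-PP (SD, n = 2), the libraries did not overlap and the difference was 7.24 points (exact permutation p = 0.333). The sign of the difference turned without PP pig 1 (-0.16 points) or without non-PP pig 2 (-0.60 points), and after each cell was thinned to the minimum number of UMIs the difference was 0.0714 points. With barcodes of a high doublet score removed it was 0.792 points. As a share of all kept barcodes, cycling T cells were 1.31% and 0.80% in PP, 4.197% and 1.19% in non-PP, and 1.42% and 0.779% in whole ileum. T cells themselves were 19.5% and 20.9% of kept barcodes in PP, against 71.4% and 56.7% in non-PP.

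In blood, the same rule found 458 cells, with a higher share than in the ileum at full depth. It was 14.0% of T cells in PBMC pig 1 (305 cells) and 7.25% in PBMC pig 2 (153 cells), against 5.59% and 3.36% over the ileal libraries labelled pig 1 and pig 2. The means were 10.6% ± 4.75 and 4.48% ± 1.57 (SD, n = 2 pigs), with p = 0.333, the smallest this exact permutation test can give. The share in the ileum fell below that in blood in both pigs, and leaving out the library labelled whole ileum pig 1 brought the ileal mean to 4.76%. Cycling T cells of blood were deeper (median 8772 and 9720 UMIs per library, against 5390 to 7618 UMIs in the ileum). After thinning to the minimum number of UMIs with the whole rule applied again, the shares were 1.40% and 0.935% in blood and 0.602% to 2.30% in the ileal libraries, and the sign of the mean difference turned. With T cells chosen at full depth and only TOP2A and PCLAF thinned, blood had 4.16% and 1.99% and the ileum 0.934% to 2.54%.

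**Figure D1:**
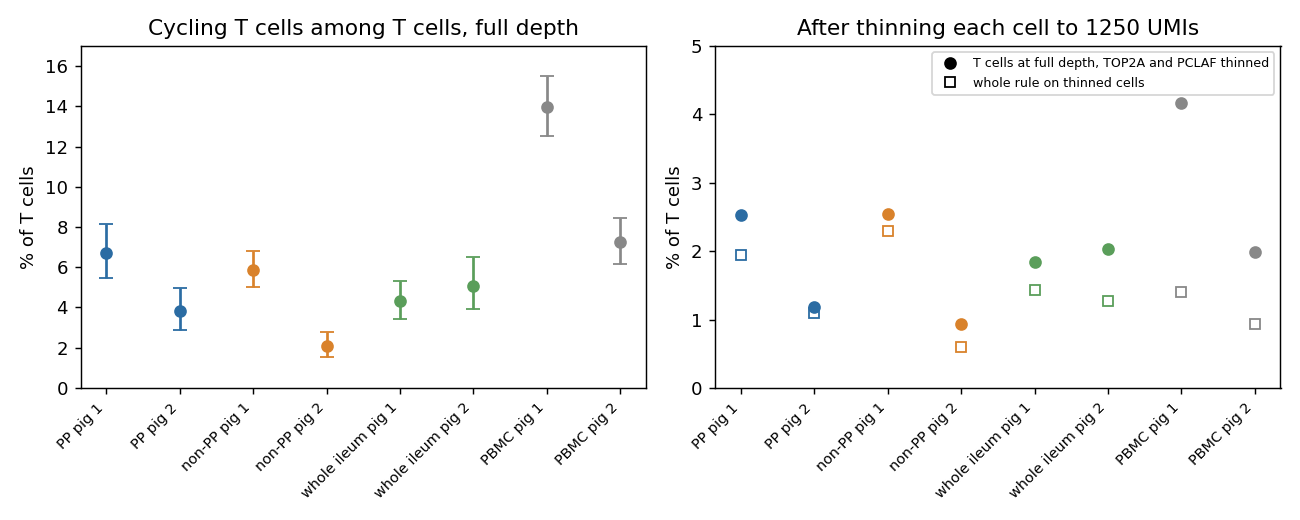
Cycling T cells as a percentage of T cells in each library (y axis), at full depth with 95% exact binomial intervals (left) and after thinning each cell to the minimum number of UMIs (right, filled circles with T cells chosen at full depth, open squares with the whole rule on thinned cells); colours mark the dissection. At full depth PBMC pig 1 is the highest library at 14.0%, and after thinning with the whole rule both blood libraries lie within the ileal range of 0.602% to 2.30%.

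The cells held CD4, CD8B and TRDC T cells, with CD8B the most frequent at full depth. After thinning to the minimum number of UMIs, TRDC was found in 15.3% and CD8B in 13.9% of them. A UMI of CD4, the helper coreceptor, was found in 51 of the 502 cells, of CD8B, a chain of the cytotoxic coreceptor, in 220 and of TRDC in 117. Of these, 34 cells had both CD8B and TRDC, 4 had CD4 and TRDC and 1 had CD4 and CD8B. Cells with 1 of the genes alone are called CD4, CD8B and TRDC cells here. There were 47 CD4 cells (9.36%, 95% exact interval 6.96 to 12.3%), 186 CD8B cells (37.1%, 32.8 to 41.4%) and 80 TRDC cells (15.9%, 12.8 to 19.4%). Another 37 cells (7.37%) had more than 1 of the genes and 152 (30.3%) had none. Without the library labelled whole ileum pig 1, 40 of 420 cells were CD4 cells (9.52%), 151 CD8B cells (35.95%) and 69 TRDC cells (16.4%). In cycling B cells, which should lack all 3, UMIs of CD4, CD8B and TRDC were found in 0.22%, 0.76% and 4.29%.

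Non-cycling T cells were divided differently, with 5.44% CD4, 18.2% CD8B and 34.0% TRDC cells. Their median depth was 2491 UMIs, against 6798 UMIs in cycling T cells, so a UMI of any gene is easier to find in a cycling cell. TRDC went the other way, being found in fewer cycling than non-cycling cells. Within the TRDC cells, between 0.752% and 4.01% per ileal library were cycling, against 5.11% to 13.9% of CD8B cells and 2.82% to 14.9% of CD4 cells. Thinned to the minimum number of UMIs, CD8B was found in 13.9% of cycling and 12.3% of non-cycling T cells, CD4 in 2.19% and 3.44%, and TRDC in 15.3% and 33.6%. In blood, 13.8% of TRDC cells in pig 1 and 2.95% in pig 2 were cycling. Summed TRDC expression in cycling T cells was 293, 589, 585, 243, 410 and 178 CPM in PP pig 1, PP pig 2, non-PP pig 1, non-PP pig 2, whole ileum pig 1 and whole ileum pig 2, below the 1164 to 1682 CPM of non-cycling T cells in every library.

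The makeup of the cycling T cells was compared between PP and non-PP, where the smallest p is again 0.333. CD4 cells were 17.7% and 7.27% of the cycling T cells in PP pig 1 and PP pig 2, against 1.83% and 4.44% in non-PP, 8.54% in the library labelled whole ileum pig 1 and 23.3% in whole ileum pig 2. Both PP libraries stood above both non-PP libraries (12.49% ± 7.38 against 3.14% ± 1.85, SD, n = 2, exact permutation p = 0.333), but these are only 17, 4, 3 and 2 cells. With barcodes of a high doublet score removed, which were 18.2% of the cycling T cells of PP pig 2, the CD4 shares were 11.4% ± 9.78 and 3.2% ± 1.9 (SD, n = 2, exact permutation p = 0.667). After thinning with the whole rule applied again, the difference was 2.63 points (exact permutation p = 1.0). That left 19, 11, 47 and 9 cycling T cells in PP pig 1, PP pig 2, non-PP pig 1 and non-PP pig 2. With cells chosen at full depth and CD4, CD8B and TRDC read after thinning, the CD4 shares in PP were 6.25% and 3.64%. In non-PP they were 0% and 2.22%. CD8B cells were 30.2% and 29.1% in PP, 37.8% and 53.3% in non-PP, and 42.7% and 33.3% in whole ileum. Here both PP libraries stood below both non-PP libraries (29.6% ± 0.79 against 45.6% ± 10.98, SD, n = 2, exact permutation p = 0.333), and the sign turned on thinning. TRDC cells were 13.5% and 9.09% in PP, 25% and 13.3% in non-PP, and 13.4% and 6.67% in whole ileum, with overlapping libraries (11.3% ± 3.15 against 19.2% ± 8.25, SD, n = 2, exact permutation p = 0.667). Within the pigs the TRDC share in PP minus that in non-PP was -11.46 points in pig 1 and -4.24 points in pig 2.

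**Figure D2:**
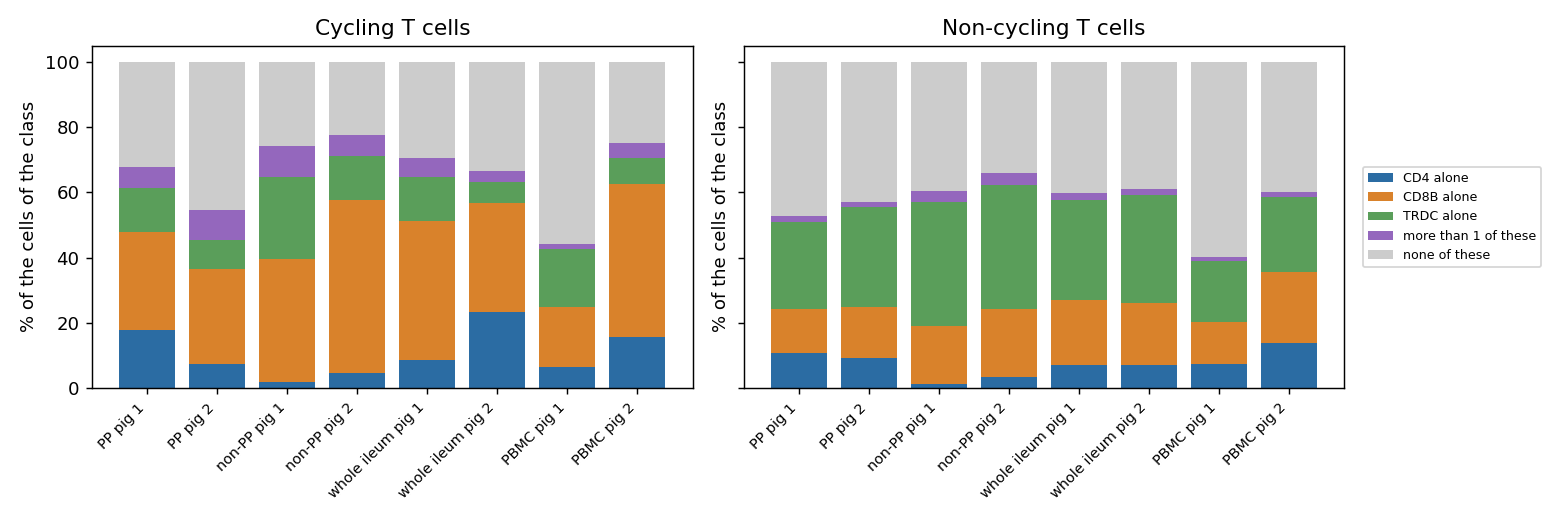
Division of cycling (left) and non-cycling (right) T cells of each library by the detection of CD4, CD8B and TRDC, as a percentage of the cells of the class (y axis, bars sum to 100). TRDC cells take 6.67% to 25% of cycling T cells in the ileal libraries and 26.8% to 38.2% of non-cycling T cells.

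The next values compare cycling with non-cycling T cells, the contrast that chose the cells, so they carry no test. Expression is in CPM of the UMIs summed over the cells of a class in a library, a scale relative to all other transcripts of the cell. A gene is counted as higher or lower here where the means of the libraries differed at least 2-fold and all 6 ileal libraries went in that direction. Of 4776 genes with at least 20 CPM in either class, 426 were higher in cycling cells (8.92%) and 210 lower (4.4%). The median gene was 0.07 higher on the log2 scale. A gene that reached the minimum in 1 class alone had to be high there, so such genes are counted apart. Of the 3839 genes that reached it in both classes, 4.3% were higher and 2.58% lower. Without the library labelled whole ileum pig 1, a choice made after seeing the data, 411 of 4758 genes were higher and 220 lower in the other 5 libraries. There 42 of 44 replication genes past the minimum were higher, against 44 of 45 with all 6 libraries, and the counts were the same for the lists of mitosis, chromatin and tubulin, cyclins and E2F, glycolysis, arrest, cytotoxic, γδ T cell and innate genes given below.

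Genes of DNA replication are described first. Of 54 with a UMI, 45 besides PCLAF reached 20 CPM, 33 of them through the cycling class alone. Of the 12 that reached it in both classes 11 were higher, DNMT1, DUT, GMNN, MCM7, ORC6, PCNA, RFC3, RPA2, RPA3, SLBP and TYMS, and the other was RFC2, a clamp-loader subunit (198 CPM ± 20.2 against 116 CPM ± 9.0, SD, n = 6 libraries). PCNA, the replication clamp, stood at 536, 543, 417, 440, 638 and 681 CPM in PP pig 1, PP pig 2, non-PP pig 1, non-PP pig 2, whole ileum pig 1 and whole ileum pig 2. The non-cycling cells had 63.0 to 106 CPM, so the classes did not overlap. TK1, which salvages thymidine for DNA synthesis, differed most among the nucleotide enzymes described here, at 348 CPM ± 47.8 against 6.05 CPM ± 3.6 (SD, n = 6). DUT, which keeps uracil out of DNA, was at 1183 CPM ± 125 against 108 CPM ± 49.1 (SD, n = 6).

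Of 69 genes of mitosis with a UMI, 60 besides TOP2A reached 20 CPM, 50 of them through the cycling class alone. The 10 that reached it in both classes were all higher, among them BIRC5, CENPE, CKS2, MAD2L1, NUSAP1 and SMC4. AURKB, the kinase of the chromosomal passenger complex, was at 110, 67.9, 93.0, 87.5, 101 and 117 CPM in the libraries in the same order, against 0.46 to 1.82 CPM in non-cycling cells, 89.2-fold between the means. UBE2C, which feeds mitotic proteins to degradation, was the most abundant of the 10 genes with the largest fold, at 899 CPM ± 149 against 13.1 CPM ± 6.8 (SD, n = 6). The others of those 10 were CCNB2, SGO1, KIF11, E2F8, GTSE1, DLGAP5, ASF1B and KIF4A, between 62.0-fold and 78.6-fold. CDK1 was at 218 CPM ± 17.2 against 9.0 CPM ± 3.7 (SD, n = 6), and it was detected in 69.7% of cycling and 2.2% of non-cycling T cells (26.5% and 0.9% when thinned).

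Of 17 genes of chromatin and tubulin past the minimum 15 were higher, 5 of the 17 having reached it through the cycling class alone, and the exceptions were HDAC2 and H3F3A. HMGB2, a DNA-bending protein, reached 3445 CPM ± 207 against 331 CPM ± 50.8 and STMN1, which unbinds tubulin, 1822 CPM ± 151 against 170 CPM ± 43.0 (SD, n = 6). Of 9 cyclin and E2F genes of the G1 phase, 5 were higher, CCNE2, CDK2, CDK4, E2F2 and E2F8, of which CDK4 alone reached the minimum in both classes. Of 13 glycolysis genes 3 were, GAPDH, PFKP and PKM, with GAPDH at 1816 CPM ± 289 against 835 CPM ± 184 (SD, n = 6).

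Genes that hold cells at rest were lower in part on the CPM scale. Of 15 genes of arrest and quiescence, 6 were lower (BTG1, BTG2, CDKN1B, FOXO3, PIK3IP1 and TXNIP) and 1, the inhibitor CDKN2C, was higher. Of the 15 genes, 7 reached the minimum in both classes, and among those BTG1 and BTG2 alone were lower. Another 7 reached it through the non-cycling class alone, CDKN1B, FOXO3, PIK3IP1 and TXNIP among them, and CDKN2C through the cycling class alone. BTG1, which restrains proliferation, stood at 729, 604, 534, 634, 595 and 704 CPM in the libraries in the same order, against 1582 to 2084 CPM in non-cycling cells. In UMIs per cell BTG1 was nearly equal, 4.88 in cycling and 4.79 in non-cycling cells, since cycling cells held more UMIs. Per cell BTG2, CDKN1B, FOXO3 and TXNIP were higher in cycling cells, with BTG2 at 0.492 against 0.384 UMIs, and PIK3IP1 alone of the 6 was lower (0.0956 against 0.139 UMIs). Of 8 genes of naive and recirculating cells past the minimum, 3 were lower in CPM and none higher. Of the 8, 4 reached the minimum through the non-cycling class alone. IL7R, the receptor for the survival cytokine interleukin 7, was 1 of these 4, at 14.6 CPM ± 12.5 against 69.0 CPM ± 18.9 (SD, n = 6). It had 0.0956 UMIs per cycling cell and 0.173 per non-cycling cell. Of the 3 lower genes TCF7, a transcription factor of naive and memory cells, alone reached the minimum in both classes. TCF7 was lower in CPM (93.6 against 198), while per cell it had 0.699 UMIs in cycling and 0.51 in non-cycling cells.

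Effector genes did not move as 1 group. GZMB, the protease that cytotoxic cells inject into targets, was at 8074 CPM ± 3099 in cycling and 7107 CPM ± 3143 in non-cycling cells (SD, n = 6), with overlapping libraries. Of 19 cytotoxic genes none was higher and 5 were lower in CPM (CD96, CTSW, GNLY, KLRC1 and KLRK1). In UMIs per cell CTSW alone of these was lower, at 1.94 in cycling against 2.3 in non-cycling cells, whereas GNLY had 18.7 against 13.7, KLRC1 0.518 against 0.386, CD96 0.496 against 0.43 and KLRK1 1.92 against 1.86. Of 7 γδ T cell genes 3 were lower in CPM, TRDC, ID3 and RHEX, and per cell ID3 had 0.215 against 0.138 UMIs while TRDC had 3.31 against 4.1. Of 7 genes of innate lymphoid and natural killer cells 4 were lower in CPM, FCER1G, KIT, KLRK1 and TYROBP, and all of these but KLRK1 were lower per cell as well. Of the last 2 lists, 3 genes each reached the minimum through the non-cycling class alone. KIT, a growth factor receptor, was at 10.5 CPM ± 6.9 against 50.2 CPM ± 13.6 (SD, n = 6). Among the 10 genes of largest fold downward were HBB, a haemoglobin chain, and ENSSSCG00000007978, and in non-PP pig 1 these stood at 410 and 237 CPM in non-cycling cells. Their levels in cycling cells were 17.5 and 3.18 CPM in that library. The other 8 were C4orf48, GPR82, KIT, CST3, IL7R, MFAP5, NAPSA and CA2, between 4.31-fold and 10.7-fold lower.

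**Figure D3:**
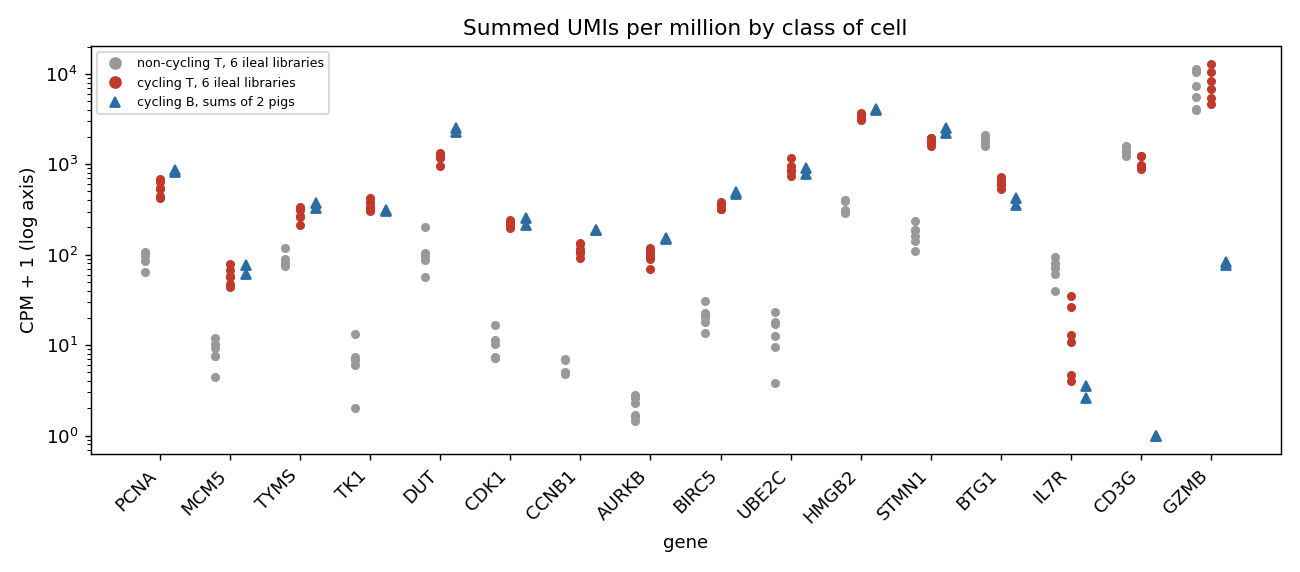
Level of 16 genes (CPM + 1, log axis) in non-cycling T cells (grey) and cycling T cells (red) of the 6 ileal libraries and in cycling B cells summed per pig (blue triangles). Replication, mitosis and chromatin genes stand apart between cycling and non-cycling T cells in all libraries, BTG1 is lower in cycling T cells and GZMB overlaps.

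Single cells were spread over the phases. The 53 replication genes took a median of 0.583% of a cell's UMIs (10th to 90th percentile 0.202 to 1.00%) and the 68 mitosis genes 0.895% (0.397 to 1.82%), against 0.0937% and 0.0739% in non-cycling T cells. After the same thinning, 98.6% of cycling T cells still had a UMI of both groups, and 46.5% of non-cycling T cells did. Across the 502 cells both shares ran in opposite directions, with r = -0.43, a description across cells that share libraries and whose shares are parts of 1 total. In each of the 6 ileal libraries r lay between -0.60 and -0.21. CD4, CD8B and TRDC cells lay close together, with median replication shares of 0.534%, 0.624% and 0.571% and median mitosis shares of 1.05%, 0.867% and 0.822%. Without the library labelled whole ileum pig 1 the medians over all cells were 0.574% for replication and 0.899% for mitosis, with r = -0.43. In cycling T cells of blood the medians were 0.770% for replication and 0.656% for mitosis, and in ileal cycling B cells 0.971% and 1.08%.

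**Figure D4:**
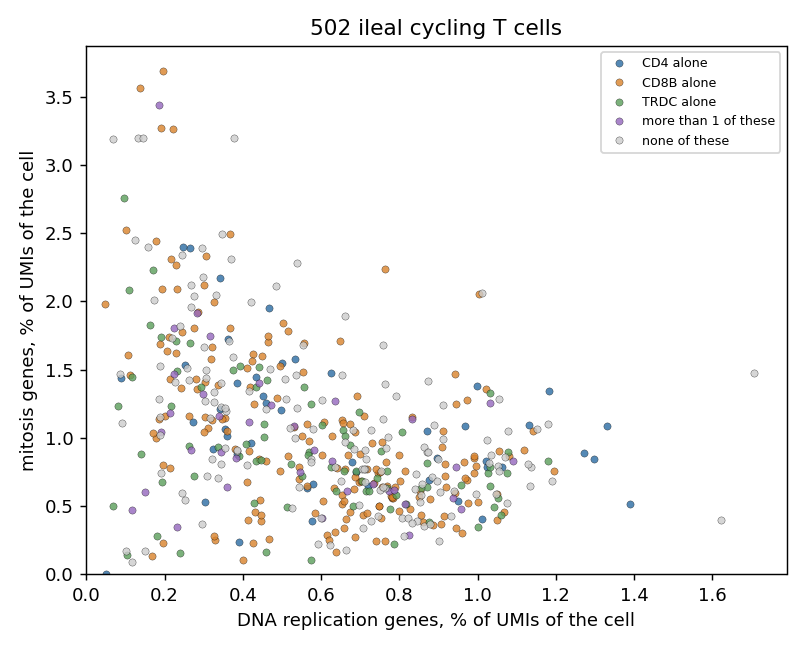
Share of a cell's UMIs from mitosis genes (y axis, %) against the share from DNA replication genes (x axis, %), 1 point for each of the 502 ileal cycling T cells, coloured by the detection of CD4, CD8B and TRDC. Cells with a high share of one group mostly have a low share of the other, and the 5 classes overlap throughout.

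Whether cycling T cells differ with the dissection was tested on UMIs summed per library, a measure the choice of cells did not use. PDCD1, SH2D1A and MAF, genes of CD4 help, were higher in PP, and the cytotoxic gene GNLY was higher in non-PP. The sums pool all cycling T cells of a library. CD4 cells were 17.7% and 7.27% of them in PP and 1.83% and 4.44% in non-PP. Subset makeup and expression within a subset cannot be told apart in these sums, and the part of makeup was not tested. Of 5053 genes tested with edgeR, 16 were higher in PP (0.317%) and 4 lower (0.0792%) at an adjusted p below 0.05, together 0.396%. With the pig as a block the counts were 22 and 14. DESeq2 gave 9 and 3, and removing barcodes with a high doublet score 13 and 2.

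RAE1, a factor of RNA export from the nucleus, was at 331 and 279 CPM in PP pig 1 and PP pig 2, against 31.0 and 51.0 CPM in non-PP pig 1 and non-PP pig 2. The groups were far apart, and RAE1 rose by 3.02 ± 0.24 on the log2 scale (SE, edgeR adjusted p = 1.2e-04). PDCD1, the inhibitory receptor PD-1 that follicular helper cells carry at a high level, was at 169 and 119 CPM in PP and 12.7 and 41.3 CPM in non-PP (log2 2.76 ± 0.39, adjusted p = 0.0097). SH2D1A, the adaptor that helper cells need for long contact with B cells, was at 144 and 143 CPM in PP and 36.6 and 19.4 CPM in non-PP (log2 2.20 ± 0.31, adjusted p = 0.0097). MAF, a transcription factor of helper cells, was at 84.1 and 34.0 CPM in PP and 13.5 and 7.29 CPM in non-PP (log2 2.41 ± 0.44, adjusted p = 0.0389). For all 4 genes both PP libraries stood above both non-PP libraries. The rule that named the called genes of largest fold, RAE1, PDCD1 and MAF among them, asked for no overlap of these libraries. Nothing is therefore read from this order.

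Of 12 measured genes of CD4 help and regulation, 3 rose in PP (PDCD1, SH2D1A and MAF) and none fell, with a median log2 difference of 1.54 beside 0.00 over all genes. The number that rose ran from 1 to 10 over the other settings. ICOS, a costimulatory receptor, was at 118 and 80.0 CPM in PP and 21.5 and 60.7 CPM in non-PP and did not pass (adjusted p = 0.16). CTLA4, an inhibitory receptor, was at 141 and 104 CPM in PP and 20.7 and 97.2 CPM in non-PP (adjusted p = 0.46). The whole ileum libraries, which hold both kinds of tissue, had 103 and 76.5 CPM of PDCD1.

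GNLY, encoding the membrane-damaging protein granulysin, was at 1180 and 638 CPM in PP and 4298 and 3472 CPM in non-PP, and fell by 2.09 on the log2 scale (SE 0.27, adjusted p = 0.00927). It was the 1 gene of 20 in the cytotoxic list that fell, with a median log2 difference of -0.70 over the list, and over the other settings 0 to 9 genes of the list fell with medians of -0.73 to -0.53. Other lists also had negative medians, -1.80 over 6 innate lymphoid and natural killer genes, -1.77 over 3 myeloid and -1.11 over 3 epithelial genes. None of these genes was called, and over the other settings 0 to 4 innate, 0 to 1 myeloid and 0 to 4 epithelial genes fell. The part of RNA from other cells in this result was not tested. In non-cycling T cells GNLY showed the same order, with 1752 and 1590 CPM in PP and 8587 and 6862 CPM in non-PP. GNLY in free RNA was at 2066 to 11337 CPM. GZMB was at 4620 and 6769 CPM in PP and 10583 and 12674 CPM in non-PP, with no overlap but no call (adjusted p = 0.10). Other genes that rose were ITM2A (log2 2.64) and ZNF70 (5.42), and CD200R1 (-1.90) and C15orf48 (-1.08) fell. GNG11 also fell, but 46 of its 72 UMIs came from 1 cell of non-PP pig 1. No gene of DNA replication (49 tested) or mitosis (64 tested) passed.

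The 20 called genes were also read in CD8B cells alone, a choice made after seeing the data. There 11 of the 20 had PP and non-PP libraries that did not overlap in the direction of the whole class, beside 27.0% of the 5053 genes tested. The CD8B cells are part of the class in which the genes were called, in the same libraries, so nothing is read from this count. In CD8B cells RAE1 was at 40.4 and 38.2 CPM in PP against 33.0 and 23.4 CPM in non-PP, PDCD1 at 37.1 and 76.5 against 13.6 and 23.4 CPM, and ITM2A was at 0 in all 4. GNLY was at 2818 and 214 CPM in PP against 2135 and 2115 CPM in non-PP, with overlapping libraries, and MAF at 3.37 and 0 against 5.82 and 0 CPM. Of the 10 called genes given here by name, RAE1 and SH2D1A alone were called under all alternatives. Leaving out 1 library at a time gave 3 to 29 genes higher and 1 to 27 lower, with 7 and 1 without PP pig 1, 3 and 3 without non-PP pig 1, 29 and 27 without non-PP pig 2, 22 and 8 without PP pig 2, 8 and 3 without the library labelled whole ileum pig 1, and 9 and 3 without whole ileum pig 2.

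The CD4, CD8B and TRDC cells among the cycling T cells were then compared, on UMIs summed per pig over the ileal libraries. CD4, CD8B and TRDC themselves are set by the choice of the classes and are not results. Cycling CD4 cells carried helper and regulatory genes, and cycling CD8B cells carried the cytotoxic ones. Of 6310 genes, 140 were higher in CD4 cells (2.22%) and 119 higher in CD8B cells (1.89%), together 4.1%. With the pig as a block these were 246 and 201, and without the library labelled whole ileum pig 1 they were 96 and 66. Without PP pig 1, which gave 17 of the 47 CD4 cells, they were 71 and 75. The non-PP libraries gave 3 and 2 of the 47 CD4 cells and 62 and 24 of the 186 CD8B cells. The sums per pig thus also set unlike dissections side by side. Summed per library with the library as a block, 158 genes were higher in CD4 cells and 251 higher in CD8B cells, of 4321.

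Of 18 genes of CD4 help and regulation, 12 rose in CD4 cells and none fell, with a median log2 difference of 2.84 beside -0.05 over all genes. Without the library labelled whole ileum pig 1, 9 of 17 rose. CTLA4 was at 422 and 490 CPM in the CD4 cells of pig 1 and pig 2 and 40.3 and 81.0 CPM in the CD8B cells (log2 2.90 ± 0.28, adjusted p = 1.3e-05). ICOS was at 275 and 288 CPM against 34.9 and 49.0 CPM (2.69 ± 0.27, adjusted p = 2.21e-05). MAF was at 220 and 110 CPM against 3.59 and 3.77 CPM (5.41 ± 0.44, adjusted p = 1.75e-06). PDCD1 was at 334 and 172 CPM against 31.4 and 41.4 CPM, and CD40LG, the ligand through which helper cells license B cells, at 76.0 and 79.7 CPM against 0.90 and 3.77 CPM. For each of these genes both pigs' CD4 cells stood above both pigs' CD8B cells.

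Some genes were not found in CD8B cells at all. FOXP3, the transcription factor of regulatory T cells, had 12 UMIs in CD4 cells and 0 in CD8B cells, at least 16.5-fold higher against a floor of 3 UMIs over the group. CXCR5, the receptor that leads cells into follicles, had 9 UMIs against 0 (at least 12.4-fold higher), and TNFRSF4, a costimulatory receptor, 11 against 0 (at least 15.1-fold higher). FOXP3 was found in 7 of the 502 cells. IL2RA, the high-affinity interleukin 2 receptor chain, was at 46.5 and 42.9 CPM against 3.59 and 1.88 CPM. Outside the lists, GPX3 (at least 26.1-fold) and HDHD3 (at least 12.4-fold) were also at 0 in CD8B cells. The calls of FOXP3 and TNFRSF4 were lost without the library labelled whole ileum pig 1, those of GPX3 and HDHD3 without PP pig 1, and that of CXCR5 without any 1 of these libraries or PP pig 2.

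Of 8 genes of naive and recirculating cells 3 were higher in CD4 cells, CCR7, S1PR1 and FOXP1, and the call of FOXP1 was lost in some settings. CCR7, which leads cells to lymph nodes, was at 161 and 147 CPM against 0.90 and 15.1 CPM (log2 4.65 ± 0.55, adjusted p = 9.42e-05). Of 12 homing and residency genes, GPR183 and CXCR4 were higher in CD4 cells, and ITGAE and ITGB7 were lower. ITGAE, the integrin chain that binds T cells to epithelium, was at 16.9 and 24.5 CPM in CD4 cells and 358 and 269 CPM in CD8B cells (log2 -4.08 ± 0.48, adjusted p = 8.35e-05).

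Of 19 cytotoxic genes 14 were lower in CD4 cells and none higher, with a median log2 difference of -4.18. Without the library labelled whole ileum pig 1, 13 of 19 were lower. GZMB was at 92.9 and 208 CPM in CD4 cells against 10578 and 10243 CPM in CD8B cells (log2 -6.27 ± 0.30, adjusted p = 4.24e-09). CCL5, a chemokine of cytotoxic cells, was at 511 and 460 CPM against 16242 and 11738 CPM (-4.96 ± 0.26, adjusted p = 7.87e-09). PRF1, which encodes the pore protein perforin, was at 4.22 and 6.13 CPM against 122 and 169 CPM. XCL1, a chemokine that draws dendritic cells, was at 0 and 12.3 CPM against 440 and 335 CPM. CD96 (at least 7.4-fold lower), DAPK2 (at least 7.7-fold), FSCN1 (at least 15.0-fold), STMN3 (at least 5.8-fold) and CALHM6 (at least 3.8-fold) were at 0 in CD4 cells. No gene of DNA replication (50 tested) or mitosis (64 tested) passed, which at this depth does not show that they were equal. Over the other settings 0 to 1 replication genes were higher in CD4 cells and 0 to 3 lower, and 0 to 4 mitosis genes were higher and 0 to 1 lower.

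Between TRDC and CD8B cells, 51 genes were higher in TRDC cells (0.808%) and 18 lower (0.285%) of 6310, together 1.09%. BLK and CD247 were among the higher genes, and CD8A, CD5, LAT and GZMK among the lower. The counts were 127 and 59 with the pig as a block, and 23 and 7 without the library labelled whole ileum pig 1. The 80 TRDC cells included 41 from non-PP pig 1, and without that library 51 and 21 were called. Of 7 γδ T cell genes 3 rose, RHEX, BLK and ID3, and 3 also without the library labelled whole ileum pig 1. RHEX had 67 UMIs in 9 cells of the TRDC class and 0 in CD8B cells, at least 61.2-fold higher. BLK, a kinase of the SRC family, was at 59.4 and 72.5 CPM against 1.79 and 1.88 CPM (log2 4.99 ± 0.65, adjusted p = 5.83e-04).

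Of the 8 measured genes of innate lymphoid and natural killer cells, 4 rose in TRDC cells, KLRK1, FCER1G, KIT and IL22. Over the other settings 0 to 5 of the list rose, with 0 of 8 without the library labelled whole ileum pig 1, and none of the 4 genes was called under every alternative. KLRK1, an activating receptor, was at 608 and 528 CPM in TRDC cells and 189 and 60.3 CPM in CD8B cells (2.07 ± 0.36, adjusted p = 0.00607). FCER1G, a signalling adaptor, was at 585 and 373 CPM against 117 and 24.5 CPM. CD247 and CD3G, signalling chains of the receptor complex, were higher too, with CD247 at 1724 and 2952 CPM against 647 and 827 CPM (1.57 ± 0.20, adjusted p = 4.99e-04). The call of IL22 rests largely on 1 cell of non-PP pig 1 with 149 of 312 UMIs over all cycling T cells, that of IGFBP7 on 1 cell with 166 of 175, and that of CXCL10 on 1 cell with 55 of 73. MEF2C, GAPT and CDH17 also rose, and the calls of CD3G and CDH17 were lost in some settings.

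Lower in TRDC cells were CD8A, CD5, LAT, CD6, GZMK and IFNG. CD5, which dampens receptor signals, was at 89.2 and 82.9 CPM against 269 and 318 CPM (-1.78 ± 0.21, adjusted p = 1.88e-04). LAT, the adaptor on which the signal is assembled, was at 125 and 155 CPM against 368 and 433 CPM (-1.63 ± 0.19, adjusted p = 1.4e-04), and CD6 was at 81.2 and 51.8 CPM against 177 and 151 CPM. GZMK was at 3.96 and 31.1 CPM against 144 and 154 CPM (-4.15 ± 0.54, adjusted p = 4.99e-04), and IFNG, encoding interferon gamma, at 23.8 and 93.2 CPM against 179 and 211 CPM. CCL3L1, ENPP4 and TPM2 were lower as well. The calls of CD6, IFNG, CCL3L1, ENPP4 and TPM2 were lost in some settings. The cytotoxic list went both ways. Of its 19 genes 2 were higher in TRDC cells (KLRK1 and CTSW) and 3 lower (GZMK, CD8A and IFNG), with a median log2 difference of 0.03. Over the other settings 0 to 6 rose and 2 to 6 fell. GZMB was not called, and pooled over cells it was at 6749.5 CPM in TRDC cells and 10470 CPM in CD8B cells. No gene of DNA replication (50 tested) or mitosis (64 tested) passed, and over the other settings 0 to 1 replication genes fell.

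**Figure D5:**
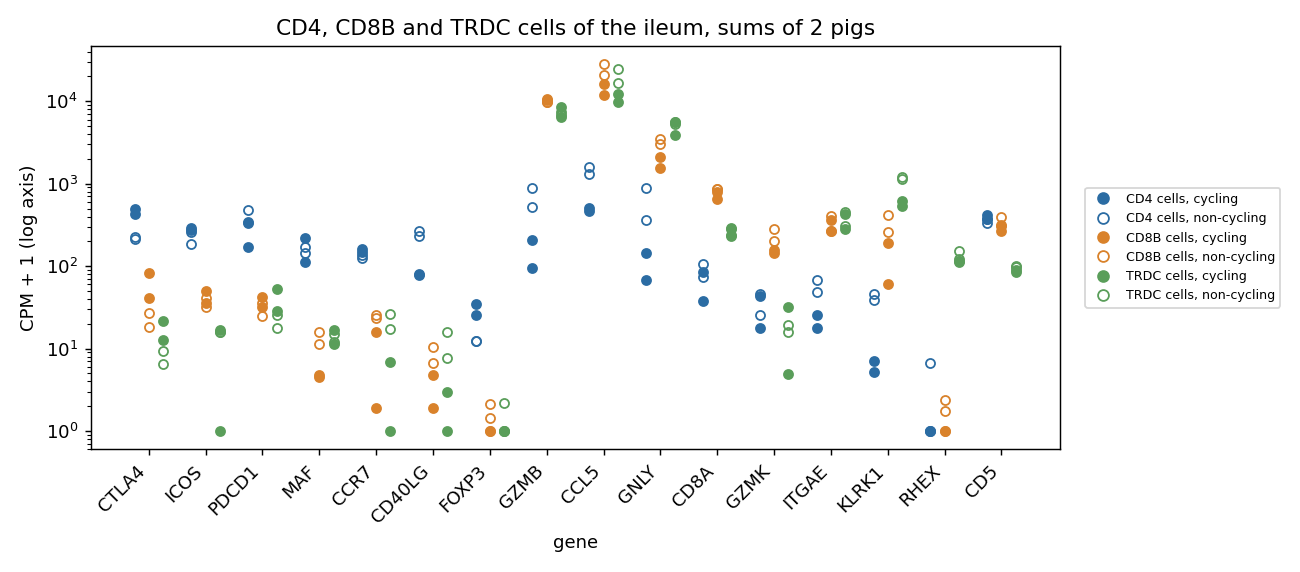
Level of 16 genes (CPM + 1, log axis) in CD4, CD8B and TRDC cells of the ileum, summed over the libraries of each pig (1 point for each pig), in cycling (filled) and non-cycling (open) T cells. GZMB and CCL5 are the most abundant in CD8B and TRDC cells, and cycling CD4 cells lie below non-cycling CD4 cells for GZMB, CCL5 and GNLY. Of these, GZMB alone was called in the test of whether the difference between CD4 and CD8B cells changes with cycling.

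Non-cycling CD4 and CD8B cells were in the same fit, so that the difference between the classes could be compared inside and outside the cycle. A test of whether it changes with cycling called 0 genes higher (0.0%) and 2 lower (0.0317%) of 6310, and DESeq2 also gave 0 and 2. An unadjusted p below 0.05 was reached by 344 genes. In simulated counts with the same spread for all genes, this test recovered 32.7% of 4-fold changes. The 2 genes were GZMB and GZMA/ENSSSCG00000016902, granzymes of cytotoxic granules. In CD4 cells GZMB was at 92.9 and 208 CPM in cycling and 895 and 522 CPM in non-cycling cells of pig 1 and pig 2, and in CD8B cells at 10578 and 10243 against 9785 and 9763 CPM. The difference between CD4 and CD8B cells was thus larger in cycling cells by 2.47 ± 0.36 on the log2 scale in the direction of CD8B cells (adjusted p = 0.0167). GZMA/ENSSSCG00000016902 was at 54.9 and 79.7 CPM in cycling and 531 and 322 CPM in non-cycling CD4 cells, and at 3066 and 3464 against 3820 and 3754 CPM in CD8B cells (log2 -2.57 ± 0.33, adjusted p = 0.00744). A second gene carries the name GZMA, and reads of near-identical copies could have been divided between them. The median depth of CD4 cells was 7141 UMIs in cycling and 2277 UMIs in non-cycling cells, and GZMB made up 1998 to 9451 CPM of free RNA. The part of free RNA and depth in this result was not tested. With the pig as a block 6 genes were higher and 11 lower, and without any 1 of the libraries apart from PP pig 2 no gene was called.

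Cycling T cells were last set against the 2771 cycling B cells of the ileum, which are chosen by the same TOP2A and PCLAF conditions. The non-PP libraries gave 4 and 12 of these B cells, against 164 and 45 of the cycling T cells, so the sums per pig also set unlike dissections side by side. Of 10295 genes 2203 were higher in cycling T cells (21.4%) and 1833 lower (17.8%), and these include the lineage genes that separate T from B cells. Without the library labelled whole ileum pig 1 the counts were 1645 and 1586, with 24 of 52 replication genes lower, 1 of 67 mitosis genes higher and 7 lower, and 3 of 20 arrest genes higher. Without both non-PP libraries, a choice made after seeing the data, 1799 of 10005 genes were higher and 1694 lower, with 20 of 52 replication genes lower, 1 of 67 mitosis genes higher and 17 lower, and 5 of 20 arrest genes higher. Since 39.2% of genes were called, the counts of cycle genes are read against that share.

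Replication genes were more often lower than higher in cycling T cells. Of 52 tested, 24 fell and 1, GINS2, rose (a call lost in most of the other settings), with a median log2 difference of -0.43 beside 0.02 over all genes. The number that fell was 20 to 30 over the other settings. EXO1, an exonuclease of DNA repair, was at 22.6 and 14.8 CPM in the T cells of pig 1 and pig 2 and 197 and 147 CPM in the B cells (log2 -3.07 ± 0.20, adjusted p = 4.83e-06). CDC6, which loads helicases at origins, was at 15.0 and 18.1 CPM against 54.6 and 57.6 CPM (-1.75 ± 0.23, adjusted p = 3.56e-04). PCNA was at 506 and 553 CPM against 820 and 852 CPM. Of 67 mitosis genes 4 rose and 14 fell, and of 18 chromatin and tubulin genes none rose and 8 fell, among them the histone gene H2AFZ (1966 and 1975 CPM against 3387 and 3466 CPM).

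The D cyclins and their partners differed in kind. CCND2 was at 42.3 and 34.5 CPM in T cells and 7.91 and 5.86 CPM in B cells (log2 2.59 ± 0.25, adjusted p = 5.17e-05), whereas CCND3 was at 130 and 132 CPM against 332 and 347 CPM (-1.32 ± 0.13, adjusted p = 5.09e-05) and CDK6 at 10.9 and 5.75 CPM against 45.9 and 47.5 CPM. Of 19 genes of this list 2 rose and 8 fell. GADD45A, which halts the cycle after DNA damage, was at 27.7 and 31.2 CPM against 285 and 228 CPM (-3.08 ± 0.18, adjusted p = 1.94e-06), while 7 of 20 arrest genes, BTG1 among them, rose. Of 18 glycolysis genes 11 rose and 1 fell, with ENO1 at 1217 and 1120 CPM against 692 and 512 CPM (1.01 ± 0.16, adjusted p = 0.0012). Among genes at 0 in 1 class, KLRG1, an inhibitory receptor of effector cells, had 37 UMIs in T cells (at least 56.9-fold higher), and GP2 had 1682 UMIs in B cells and none in T cells (at least 121-fold lower).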

How the data were processed

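The deposited tables held raw UMI counts for all 737280 barcodes of each of 8 libraries, which the authors made with Cell Ranger (version 4.0.6 in the submitters' processing notes) from 10x Chromium 3′ v2 reads and Sus scrofa 11.1, before removing free RNA or filtering cells. By the labels, same-numbered libraries come from the same pig. The library labelled whole ileum pig 1 goes against this, and per-pig sums and the pig block follow the labels. A group holds 1 library of each of 2 pigs, and p-values measure the spread between these libraries.

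Barcodes were kept with at least 1250 UMIs, at least 550 genes and at most 12.5% of UMIs from 13 mitochondrial genes, and thinning was to 1250 UMIs. Kept barcodes per library numbered 3776 to 7704, with medians of 2578 to 3584 UMIs. Doublet scores (scanpy 1.11.5, expected rate 0.07) were given and not used as a filter except in 1 alternative, which removed scores above 0.25. UMIs were summed per library or pig and tested with edgeR 4.0.16 (quasi-likelihood, TMM, filterByExpr, Benjamini-Hochberg over all genes tested, called at adjusted p below 0.05) in R 4.3.3. DESeq2 1.42.0 was an alternative. The per-library test used the 6 ileal libraries without a pig term, and per-pig tests used 12 class sums (CD4, CD8B and TRDC cells, cycling or not) or 8 (T and B cells). Shares were compared by exact permutation (scipy 1.17.1), with Clopper-Pearson intervals. Free RNA was read from barcodes below cell size. In simulated counts edgeR recovered 80.2% of 4-fold and 17.3% of 2-fold changes for PP against non-PP, 59.4% and 6.1% for CD4 against CD8B cells, and 32.7% and 2% for their interaction with cycling.

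Members and gene lists were chosen with earlier results of these data known. Named genes are those of the lists, plus the 5 called genes of largest fold in each direction with both pigs in 1 direction. For PP minus non-PP these genes instead had to show no overlap of the PP and non-PP libraries. For cycling against non-cycling cells, 10 were named in each direction. Fold bounds against 0 used 3 UMIs over the group. Results for some genes are not reported here.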

Additional observations from a re-analysis of the deposited data

Results flagged for a closer look

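The difference between CD4 and CD8B cells was not the same in cycling and non-cycling T cells for 2 granzyme genes, by a test of the interaction in edgeR. For GZMA/ENSSSCG00000016902 the log2 interaction was -2.57 (adjusted p = 0.00744), and over the alternatives the adjusted p ran from 4.59e-18 to 0.859 and the value from -2.97 to -2.01. For GZMB it was -2.47 (adjusted p = 0.0167), with adjusted p from 4.88e-27 to 0.873 and values from -3.04 to -2.12. Both genes were lower in cycling than in non-cycling CD4 cells in both pigs. The cycling CD4 class is 47 cells with 26 UMIs of GZMA/ENSSSCG00000016902 and 56 UMIs of GZMB.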

How the results depend on the processing

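All values here are counts of genes called higher and lower, unless said otherwise. The replicate block, with libraries paired by pig, gave 22 and 14 for PP minus non-PP, 246 and 201 for CD4 minus CD8B cells, 127 and 59 for TRDC minus CD8B cells, 6 and 11 for the interaction and 2496 and 2143 for T minus B cells. Each pig gave 1 library to each group, so the block cannot move the PP minus non-PP differences in mean shares. These were 1.29 points for cycling cells, 9.35 for CD4, -15.92 for CD8B and -7.85 for TRDC. No filter on low counts gave 60 and 49, 174 and 189, 143 and 50, and 5 and 8 for the first 4 comparisons. DESeq2 gave 9 higher for PP minus non-PP. The gate of at least 2 UMIs of TOP2A and PCLAF gave 9 higher there, and removing doublets 2 lower there and 1 lower for the interaction. Sums per library with the library as a block gave 251 lower for CD4 minus CD8B cells, 96 and 69 for TRDC minus CD8B cells, and 1 and 9 for the interaction. Leaving out 1 library gave 3 to 29 and 1 to 27 for PP minus non-PP, 71 to 158 and 66 to 121 for CD4 minus CD8B cells, 23 to 51 and 7 to 21 for TRDC minus CD8B cells, 0 and 0 to 2 for the interaction, and 1594 to 1966 and 1586 to 2415 for T minus B cells, the last with 1689 and 2415 without PP pig 1 and 1594 and 2354 without non-PP pig 2. Leaving out 1 library moved the PP minus non-PP difference in the cycling share between -0.60 and 3.17 points, in the CD4 share between 4.14 and 14.6, in the CD8B share between -23.7 and -8.16 and in the TRDC share between -13.7 and -2.02. Thinning to the minimum number of UMIs, with the whole rule applied again, turned the CD8B difference to 13.0 points and the ileum minus blood difference to 0.27 points. The CD8B value rests on 19 and 11 cells in PP and 47 and 9 in non-PP. With T cells chosen at full depth and only TOP2A and PCLAF thinned, blood had 4.16% and 1.99% and the ileal libraries 0.934% to 2.54%. No named gene changed sign. Of genes called and named, those called under every alternative numbered 2 of 10 for PP minus non-PP, 33 of 49 for CD4 minus CD8B cells, 11 of 28 for TRDC minus CD8B cells, 0 of 2 for the interaction and 175 of 211 for T minus B cells. The causes were not tested, beyond fewer samples or more genes tested in an alternative. Depth limits the smallest classes, with 47 CD4 cells in 2 pigs.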

Other observations

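No test was run on expression between cycling T cells of blood and ileum, and the values were as follows. ITGAE was at 196 to 402 CPM in the 6 ileal libraries and at 28.2 and 31.3 CPM in PBMC pig 1 and PBMC pig 2. CCR9, the receptor that leads cells to the small intestine, was at 63.1 to 140 CPM against 12.7 and 7.7 CPM. CD69, which holds cells in tissue, was at 115 to 276 CPM against 18.3 and 23.6 CPM. KLF2, a transcription factor of circulating cells, went the other way, with 7.3 to 23.2 CPM in the ileum and 358 and 428 CPM in blood. TBX21, a transcription factor of effector cells, was at 9.7 to 21.9 CPM against 127 and 106 CPM, and ITGB1, an integrin chain, at 32.9 to 89.9 CPM against 308 and 186 CPM. GNLY was at 638 to 4298 CPM in the ileum and at 6453 and 6159 CPM in blood. In non-cycling T cells the ileal and blood libraries stood in the same order without overlap for all of these genes but GNLY, whose 7263 CPM in PBMC pig 2 lay within the ileal range of 1590 to 8587 CPM. These are a few chosen genes with no share over all genes beside them, so nothing is read from their order.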
